A study of Homo sapiens with 2 samples.

Results

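The MHC class II genes were followed across the cell classes of blood-generating heart-forming organoids. The set held 10 loci, namely the antigen-binding chain genes HLA-DRA, HLA-DRB1, HLA-DPA1, HLA-DPB1, HLA-DQA1 and HLA-DQB1, the peptide exchange genes HLA-DMA and HLA-DMB, the invariant chain gene CD74 and the transactivator gene CIITA. They were chosen by symbol, and all 10 members were found among the 36601 genes of both count matrices. The series comprised 2 blood-generating heart-forming organoids (BG-HFOs), named 32.7 and 33.10, both grown from hES3 NKX2.5-eGFP, a human embryonic stem cell line that carries a green fluorescent reporter at a cardiac gene. Both were formed by embedding cell aggregates in Matrigel, modulating the WNT pathway in 2 phases and adding growth factors and cytokines that favour endothelium and blood, and both were dissociated on day 14, so there was no untreated group. Each organoid gave 1 single-cell library of 3′ transcript ends, and all values are counts of unique molecular identifiers (UMIs), each standing for 1 captured transcript. Because both organoids come from 1 line, they share 1 set of HLA alleles.

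MHC class II molecules are paired alpha and beta chains that present peptides from endosomes to CD4+ T cells. HLA-DR, HLA-DP and HLA-DQ are the presenting pairs. CD74, the invariant chain, holds the groove and guides new pairs to the endosome, where HLA-DM, the HLA-DMA and HLA-DMB pair, helps to exchange its remnant for peptide. Transcription depends on CIITA, which binds no DNA itself but docks on the RFX, CREB and NF-Y factors assembled on the W, X and Y elements of class II promoters. Dendritic cells and B cells carry these transcripts constitutively, macrophages carry more of them when activated, and interferon gamma can induce CIITA in many other cells.

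In GRCh38, 8 of the loci lie on chromosome 6. HLA-DRA (ENSG00000204287) spans 32439878 to 32445046 on the plus strand and HLA-DRB1 (ENSG00000196126) spans 32577902 to 32589848 on the minus strand. HLA-DQA1 (ENSG00000196735) spans 32628179 to 32647062 on the plus strand and HLA-DQB1 (ENSG00000179344) spans 32659467 to 32668383 on the minus strand. HLA-DMB (ENSG00000242574, 32934629 to 32941028) and HLA-DMA (ENSG00000204257, 32948613 to 32969094) are both on the minus strand. HLA-DPA1 (ENSG00000231389, 33064569 to 33080775, minus strand) and HLA-DPB1 (ENSG00000223865, 33075990 to 33089696, plus strand) overlap by 4786 bases. CD74 (ENSG00000019582) lies on chromosome 5 at 150401637 to 150412969 on the minus strand and CIITA (ENSG00000179583) on chromosome 16 at 10866222 to 10943021 on the plus strand. HLA genes are polymorphic and have near-identical copies, so their counts depend on how reads of the line's own alleles matched the reference, and the sources used here do not give whether strand was used in counting.

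Promoter letters of the X and Y elements are shown because CIITA, itself 1 of the 10 members, is described above as the regulator of class II genes. RefSeq promoter windows of GRCh38.p14, from 250 bases before to 50 bases after the gene start, were found for 8 members. HLA-DRA and CIITA had no window. The letters searched were AGNNACNGA for the X element and ATTGG, an inverted CCAAT, for the Y element, on both strands, and they do not overlap each other. These letters were chosen with the windows known. HLA-DRB1, HLA-DQA1, HLA-DQB1 and HLA-DMA held both in order, with 24 or 25 bases between them, in the stretches below, written 5′ to 3′ on the strand of the gene with both matches in capitals.
HLA-DRB1, chr6:32589878-32589939, minus strand: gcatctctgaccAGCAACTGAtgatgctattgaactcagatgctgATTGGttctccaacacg
HLA-DQA1, chr6:32637292-32637354, plus strand: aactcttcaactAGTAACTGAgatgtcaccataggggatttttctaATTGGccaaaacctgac
HLA-DQB1, chr6:32666729-32666790, minus strand: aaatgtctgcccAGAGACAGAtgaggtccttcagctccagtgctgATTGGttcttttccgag
HLA-DMA, chr6:32953160-32953222, minus strand: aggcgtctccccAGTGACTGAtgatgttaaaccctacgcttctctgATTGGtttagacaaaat
The X match began 79, 102, 121 and 113 bases before the start of HLA-DRB1, HLA-DQA1, HLA-DQB1 and HLA-DMA, respectively. These starts are those of RefSeq, which for HLA-DQA1, HLA-DQB1 and HLA-DMA lie inside the longer gene spans given above. Of all 35116 promoter windows of the same length, 15.3% held the X letters, 34.6% held the Y letters and 0.39% held both in order on 1 strand with 10 to 40 bases between them. The X letters were found in 6 members and the Y letters in 7, among them HLA-DMB with 3 X matches and 1 Y match but no ordered pair. The CD74 window had 1 Y match and the HLA-DPB1 window 2 Y matches, and neither had the X letters. A match is a description of letters, and no binding was measured.

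The libraries held 16866 and 19948 barcodes with 191152562 and 233818881 UMIs, of which 16792 and 19893 cells passed the filter of the study on genes per cell and mitochondrial share. The 2 libraries shared 100 barcodes. Cells with at least 1 UMI of PTPRC, the gene of the leukocyte antigen CD45, are called PTPRC-positive and numbered 1900 and 1051. All cells were clustered together, and the PTPRC-positive cells were then clustered again on their own. Clusters of both kinds were named from marker lists. Cells with no PTPRC UMI took the name of their cluster among all cells, and PTPRC-positive cells that of their own subcluster. Neither the members nor the genes of the pathway lists took part in the clustering. The monocyte-macrophage class held 687 and 318 PTPRC-positive cells, and 913 and 370 PTPRC-positive cells stayed unnamed because markers of unrelated lineages were raised together. All 8 monocyte-macrophage markers were found in the class in both organoids, with a summed level of 7070 and 5785 CPM (UMIs of a gene for every 1000000 UMIs of the class), against 38 to 45.1 CPM in endothelial, cardiomyocyte and mesenchymal cells. The class was named from these same markers, so their height in it is no separate evidence. They also summed to 5772 and 5058 CPM in PTPRC-positive granulocytes and to 2609 and 2196 CPM in PTPRC-positive megakaryocytes. Of 9 dendritic cell markers, 7 had a UMI in it, with summed levels of 56.5 and 35.5 CPM. Most came from CLEC10A (32.4 and 20.1 CPM) and CD1C (20.9 and 12.1 CPM), while FCER1A, also in the list, was at 0 in both organoids. Of the B-cell genes in the list, CD79A was at 0.964 and 0.543 CPM and CD79B at 5.87 and 4.53 CPM. The part of dendritic or B cells in the values below was not tested.

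HLA-DRA, the alpha chain of HLA-DR, had a larger share of its UMIs in the monocyte-macrophage class than any other member, in both organoids. In organoid 32.7, that class held 4381 of 6392 HLA-DRA UMIs (68.5%) with 4.09% of the cells, and in organoid 33.10 it held 500 of 775 (64.5%) with 1.6% of the cells. Most of the remainder lay in PTPRC-positive unnamed cells (25.1% and 27.2%), of which 736 of 913 and 85 of 370 were left when predicted doublets were removed. The 3 non-blood classes, endothelial, cardiomyocyte and mesenchymal cells without a PTPRC UMI, held 44 and 5 HLA-DRA UMIs together, or 0.688% and 0.645%. HLA-DQB1, the beta chain of HLA-DQ, had the opposite distribution, with 60.3% and 68.2% of its UMIs in those non-blood classes, and HLA-DPB1, the beta chain of HLA-DP, had 46% and 39.7% there. HLA-DRB1, the beta chain of HLA-DR, lay between them with 22.9% in organoid 32.7 and 56% in organoid 33.10.

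**Figure D1:**
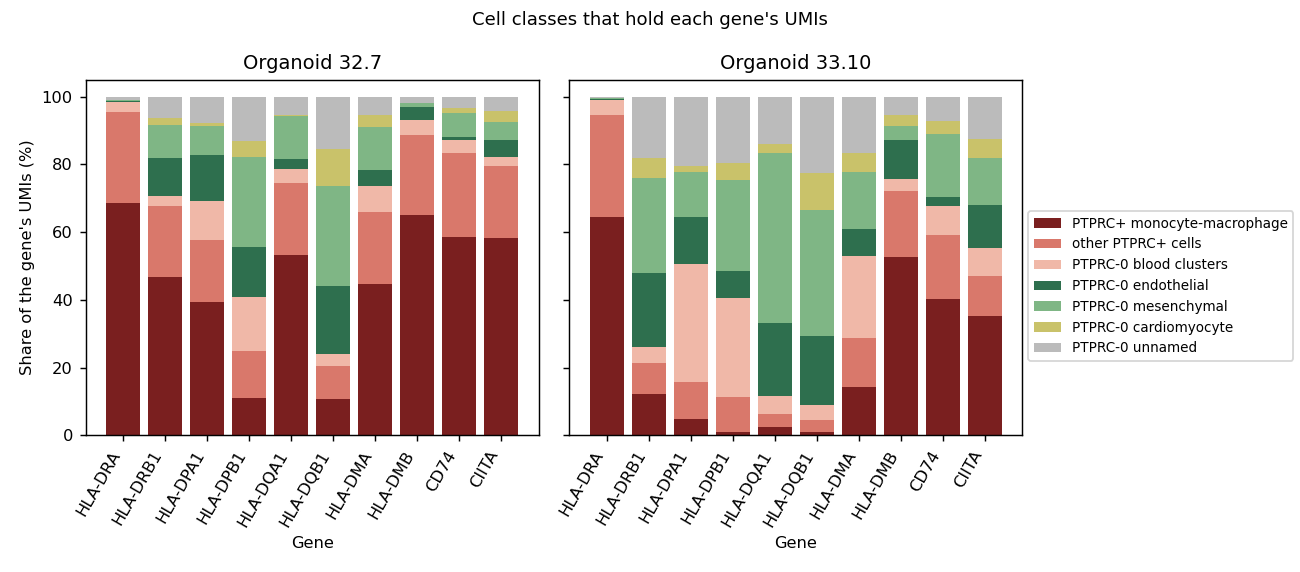
Share of each gene's UMIs (percent, vertical axis) that lay in each group of cell classes (colours), for the 10 members (horizontal axis) in organoid 32.7 (left) and organoid 33.10 (right). The PTPRC-positive monocyte-macrophage segment is the tallest for HLA-DRA, at 68.5% and 64.5%, whereas HLA-DQB1 lay mainly in the 3 non-blood classes, at 60.3% and 68.2%.

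A first comparison set all PTPRC-positive cells against all cells with no PTPRC UMI, the gate often used to define leukocytes. All 10 members passed the filter on low counts in every fit. HLA-DRA stood at 172 and 32.8 CPM in PTPRC-positive cells of organoids 32.7 and 33.10, against 1.83 and 0.196 CPM in the others. CD74 stood at 179 and 53.7 against 8.14 and 3.95 CPM, and CIITA, the regulator, at 7.85 and 3.35 against 0.465 and 0.402 CPM. For all 3 genes, both PTPRC-positive values lay above both others. HLA-DPB1, at 30 and 35 against 20.7 and 29.1 CPM, was separated by little, and HLA-DQB1, at 15.8 and 5.67 against 14 and 12.8 CPM, overlapped.

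In PTPRC-positive cells, 7 of the 10 members were called higher and none lower among 24563 genes tested (quasi-likelihood test of edgeR, p adjusted after Benjamini-Hochberg), against 13.4% of all genes called higher and 13.3% lower. The median log2 fold change of the members was 2.89, and that of all genes tested was -0.07. The calls were HLA-DRA (log2 fold change 6.85, SE 1.42, adjusted p = 0.0261), HLA-DRB1 (2.77), HLA-DPA1 (2.01), HLA-DMA (2.78), HLA-DMB (5.16), CD74 (4.42, SE 0.74, adjusted p = 0.015) and CIITA (3.86, SE 0.48, adjusted p = 0.0075). HLA-DPB1 (0.53, adjusted p = 0.0854), HLA-DQA1 (2.99, adjusted p = 0.107) and HLA-DQB1 (-0.15, adjusted p = 0.831) were not called. A fit that paired the sums of 1 organoid as a block also called HLA-DPB1 (0.55, adjusted p = 0.00179) and HLA-DQA1 (2.56, adjusted p = 0.0191). DESeq2 called both as well (0.57, adjusted p = 0.0386 and 3.01, adjusted p = 0.0196). HLA-DRB1 was not called when predicted doublets were removed (2.86, adjusted p = 0.0582). Here and below, the replicates are 2 organoids, cultured as separate units. No source used here says that they came from separate differentiation runs, and p-values describe only the spread between them. In the fits of named cell classes below, that spread was estimated jointly over all classes of the same 2 organoids, with their sums treated as independent. A small p-value there does not rest on the 2 sums of 1 class alone.

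Across the named classes, HLA-DRA, CD74 and CIITA were highest in monocyte-macrophage cells. HLA-DRA reached 352 CPM in organoid 32.7 (exact Poisson 95% interval 342 to 363) and 90.6 CPM in organoid 33.10 (82.8 to 98.9), intervals that cover counting error only. It was at 0.314 and 0.0614 CPM in endothelial cells, 0.609 and 0.0609 CPM in mesenchymal cells and 0.288 and 0 CPM in cardiomyocytes, which held 5 and 0 UMIs. None in 1884 cardiomyocytes of organoid 33.10 allows a share of cells with a UMI of up to 0.159%. CD74 was at 359 and 148 CPM in monocyte-macrophage cells and between 1.6 and 11.9 CPM in the non-blood classes. CIITA was at 16.5 and 10.1 CPM, and between 0.4 and 0.635 CPM in those classes. HLA-DMA and HLA-DMB, the exchange pair, were at 70.1 and 31.3 and at 31.4 and 14.1 CPM, against at most 5.33 and 0.656 CPM. For these 5 genes, both organoids of the monocyte-macrophage class lay above every non-blood value.

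**Figure D2:**
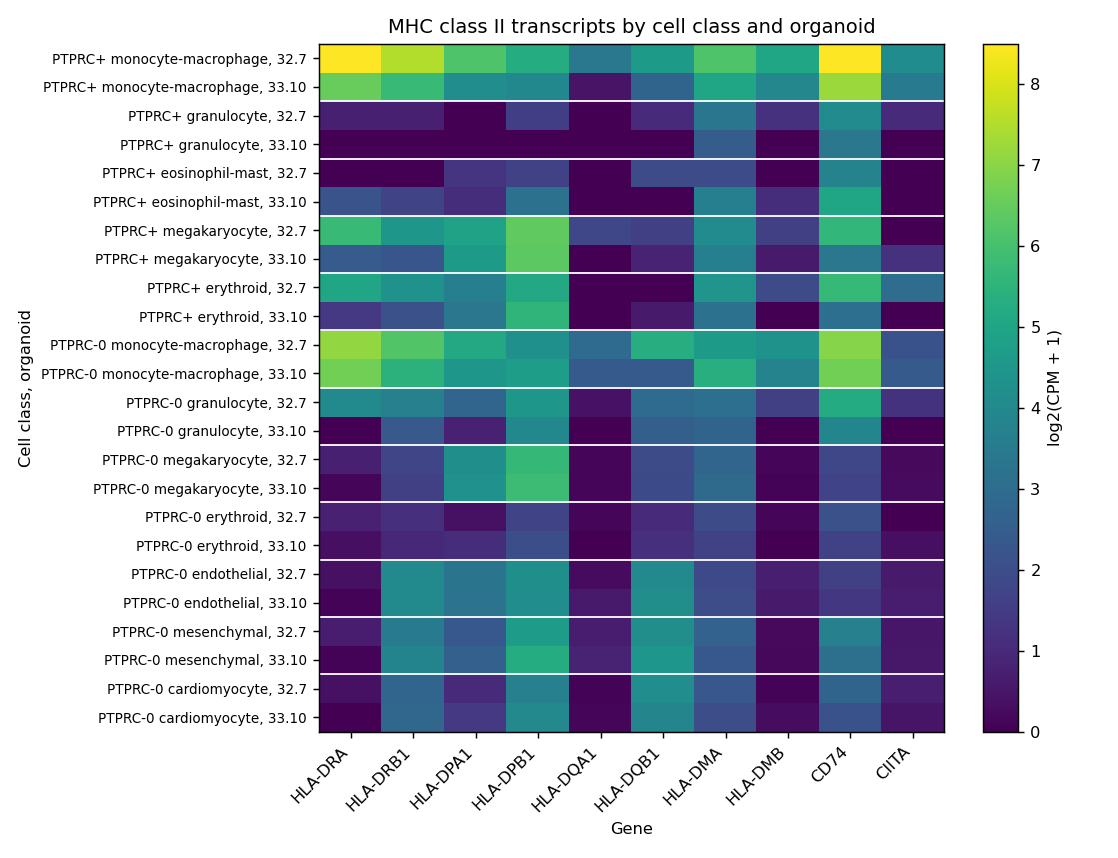
Level of the 10 members (columns) in each named cell class of each organoid (rows), as log2(CPM + 1) on a colour scale. HLA-DRA and CD74 are brightest in monocyte-macrophage cells, at 352 and 359 CPM in PTPRC-positive cells of organoid 32.7, and in organoid 33.10 HLA-DRA was at 90.6 CPM in PTPRC-positive and 103 CPM in PTPRC-0 cells, while HLA-DPB1 is bright in megakaryocytes and HLA-DQB1 is of similar shade in endothelial, mesenchymal and cardiomyocyte rows.

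Against the mean of the 3 non-blood classes, 9 members were called higher in monocyte-macrophage cells and none lower among 18040 genes tested (edgeR, quasi-likelihood, Benjamini-Hochberg). For comparison, 28.3% of all genes were called higher and 36.3% lower, and the median log2 fold change was 4.22 for the members and -0.13 for all genes. The difference was 10.20 on the log2 scale for HLA-DRA (SE 0.72, adjusted p = 2.24e-10), 6.73 for HLA-DMB (SE 0.38, adjusted p = 9.49e-12) and 6.02 for CD74 (SE 0.40, adjusted p = 1.08e-10). CIITA followed with 4.88 (SE 0.40, adjusted p = 4.37e-09) and HLA-DMA with 3.98 (SE 0.25, adjusted p = 5.47e-11). These 5 genes were higher in both organoids: the ratio of CPM was 109 and 48.9 for HLA-DMB, 55 and 34.9 for CD74, 31.7 and 20.8 for CIITA and 17.6 and 9.31 for HLA-DMA. The fold of HLA-DRA rests on the 44 and 5 UMIs of the non-blood classes.

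The values of HLA-DPB1, HLA-DQA1 and HLA-DQB1 depended on the organoid. HLA-DQA1, the alpha chain of HLA-DQ, had 119 UMIs (9.56 CPM) in monocyte-macrophage cells of organoid 32.7 and 2 UMIs (0.362 CPM) in those of organoid 33.10, against 0.289 and 0.468 CPM as the mean of the non-blood classes. Its difference of 4.46 (SE 0.65, adjusted p = 1.42e-05) fell to 0.21 (adjusted p = 0.926) without organoid 32.7. In such fits each class of both arms keeps 1 sum, which is assumed to vary like the classes outside the comparison that keep both. HLA-DPB1 was at 37.6 and 14.5 CPM against 18.1 and 23.1 CPM, so it was higher in organoid 32.7 and lower in organoid 33.10. Its difference of 0.63 (SE 0.24, adjusted p = 0.0303) became -0.43 (adjusted p = 0.277) without organoid 32.7. The call was also lost with DESeq2 size factors (0.51, adjusted p = 0.0718), with 10% of the library profile removed (0.64, adjusted p = 0.0795) and with DESeq2 (0.48, adjusted p = 0.192). HLA-DQB1, at 23.8 and 5.62 CPM against 16.7 and 17.4 CPM, had a difference of 0.03 (adjusted p = 0.945), and of -1.48 (adjusted p = 0.0292) without organoid 32.7. HLA-DRB1 (181 and 51.4 against 10.4 and 11.6 CPM; 3.68, SE 0.35, adjusted p = 1.63e-08) and HLA-DPA1 (70.3 and 17 against 4.57 and 5.02 CPM; 3.73, SE 0.33, adjusted p = 1.09e-08) were higher in both organoids.

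**Figure D3:**
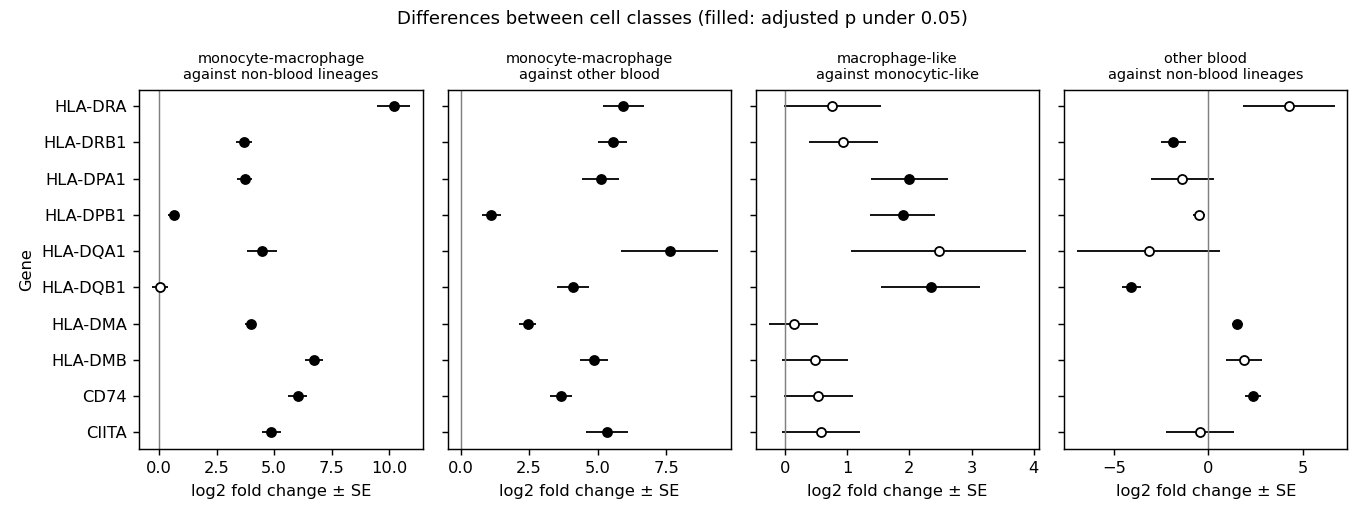
Log2 fold change with its standard error (horizontal axis) of the 10 members (vertical axis) in 4 comparisons of cell classes over 2 organoids, with filled points for an adjusted p under 0.05. The standard error was derived from the fold change and its test statistic. Against the non-blood lineages HLA-DRA lies farthest right at 10.20 and HLA-DQB1 at 0.03, whereas macrophage-like and monocytic-like cells differed in 3 members.

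Other blood cells carried less HLA-DRA, CD74 and CIITA, but not less HLA-DPB1 in every class. The 4 other PTPRC-positive classes were granulocytes (111 and 24 cells), eosinophil-mast cells (67 and 34), megakaryocytes (93 and 209) and erythroid cells (29 and 96). HLA-DRA was at 0.667 and 0 CPM in granulocytes, 0 and 3.48 CPM in eosinophil-mast cells, 51.2 and 4.4 CPM in megakaryocytes and 30.6 and 1.63 CPM in erythroid cells. Of the erythroid class, S100A9 and S100A8 were among the leading genes beside HBZ and GYPB. The high values in the last classes were those of organoid 32.7, where the 8 macrophage markers summed to 219 CPM in megakaryocytes and 166 CPM in erythroid cells, against 13.3 CPM in granulocytes and 7.1 CPM in eosinophil-mast cells. In organoid 33.10, they summed to 95.7 and 98.5 CPM in megakaryocytes and erythroid cells. The part of those markers in the HLA-DRA values was not tested. CD74 was found in all 4 classes, from 7.61 to 51 CPM.

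All 10 members were called higher in monocyte-macrophage cells than in the average of the 4 other blood classes in the same edgeR fit, where 17.8% of all genes were called higher and 7.61% lower. The median log2 fold change of the members was 4.99, and that of all genes was 0.12. CD74 differed by 3.67 (SE 0.41, adjusted p = 9.92e-07), HLA-DMA by 2.45 (SE 0.30, adjusted p = 2.63e-06) and HLA-DRB1 by 5.55 (SE 0.53, adjusted p = 1.12e-07). HLA-DRA differed by 5.94 (SE 0.75, adjusted p = 4.46e-06), with 124 and 23 UMIs over the 4 classes. For members with classes at 0 UMIs, such as HLA-DQA1 (5 and 0 UMIs over the 4 classes), the size of the fitted fold depends on the prior count. HLA-DPB1 was called higher (1.13, SE 0.34, adjusted p = 0.0181) because the test averages log levels over classes, granulocytes included, whereas the plain mean of CPM over the 4 classes was 30.6 and 33.8, against 37.6 and 14.5 in monocyte-macrophage cells. By that mean it was lower in monocyte-macrophage cells of organoid 33.10. Without organoid 32.7, neither HLA-DPB1 (1.82) nor HLA-DQA1 (5.46) was called. Both calls were also lost with at least 2 PTPRC UMIs for a positive cell (0.67, adjusted p = 0.399 and 5.74, adjusted p = 0.0934). At that setting granulocytes (94 and 18 cells) and erythroid cells (13 and 47) had under 20 cells in 1 organoid and left the comparison. The other arm then held only eosinophil-mast cells and megakaryocytes, so the part of the stricter gate in the lost calls was not tested.

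The HLA-DP chain genes were measured in megakaryocytes, the platelet precursors. PTPRC-positive megakaryocytes had 84.7 and 81.3 CPM, the highest HLA-DPB1 level of the named classes in both organoids, and megakaryocytes with no PTPRC UMI (1390 and 3876 cells) had 49 and 56.2 CPM. Both exceeded the values of monocyte-macrophage cells, 37.6 and 14.5 CPM, in each organoid. HLA-DPA1, its partner chain, was at 28.4 and 23.8 CPM in the PTPRC-positive and 17.7 and 18.7 CPM in the other megakaryocytes, below the 70.3 CPM of monocyte-macrophage cells in organoid 32.7 but above their 17 CPM in organoid 33.10. Megakaryocytes with no PTPRC UMI had HLA-DRA at 0.682 and 0.118 CPM, CD74 at 2.47 and 2.27 CPM and CIITA at 0.171 and 0.177 CPM, the last from 2 and 6 UMIs. No difference of megakaryocytes alone from another class was tested.

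Set against the non-blood classes, the other blood classes had 2 members called higher, HLA-DMA (1.53, SE 0.30, adjusted p = 0.000171) and CD74 (2.35, SE 0.43, adjusted p = 7.05e-05), and 2 called lower, HLA-DRB1 (-1.87, SE 0.66, adjusted p = 0.0163) and HLA-DQB1 (-4.08, SE 0.50, adjusted p = 5.09e-07) in the edgeR fit. Of all genes, 26.4% were called higher and 42.1% lower. HLA-DQB1 had 11 and 4 UMIs in the 4 blood classes together (mean 1.47 and 0.33 CPM) and 16.7 and 17.4 CPM in the non-blood classes, with no overlap. HLA-DRB1 had a mean of 10.2 and 2.37 CPM against 10.4 and 11.6 CPM, nearly equal in organoid 32.7. There, megakaryocytes (21.3 CPM) and erythroid cells (18.9 CPM) lay above the non-blood mean, while granulocytes and eosinophil-mast cells held 2 and 0 UMIs. The HLA-DRB1 call was lost without organoid 33.10 (-2.70). It was also lost with at least 2 PTPRC UMIs (-1.15, adjusted p = 0.341), where granulocytes and erythroid cells left the comparison. HLA-DRA differed by 4.26 (SE 2.43, adjusted p = 0.127). It was called in the blocked fit (4.16, adjusted p = 0.00648) and with DESeq2 (4.44, adjusted p = 0.000152). The difference became -1.28 (adjusted p = 0.812) when predicted doublets were removed.

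Non-blood cells carried a mixture of members unlike that of monocyte-macrophage cells. Endothelial cells (2723 and 3092) had HLA-DRB1 at 15.5 CPM in both organoids, HLA-DPA1 at 8.55 and 8.32, HLA-DPB1 at 17.8 and 17 and HLA-DQB1 at 15.6 and 17.5 CPM. Mesenchymal cells (3901 and 4166) had HLA-DPB1 at 24.7 and 37.2 CPM and HLA-DQB1 at 17.5 and 21.2 CPM, and cardiomyocytes (1679 and 1884) had them at 11.9 and 15.1 and at 17.1 and 13.5 CPM. These levels differed less between the organoids than those of monocyte-macrophage cells. HLA-DQA1, the partner chain of HLA-DQB1, was at 0.2 and 0.522 CPM in endothelial and 0.609 and 0.792 CPM in mesenchymal cells. In cardiomyocytes it was at 0.0577 and 0.0889 CPM, from 1 and 2 UMIs. In organoid 32.7, HLA-DRB1 had 0.513 UMIs for each HLA-DRA UMI in monocyte-macrophage cells, but 49.5 in endothelial, 16.3 in mesenchymal and 20 in cardiomyocyte cells. The latter ratios rest on 11, 28 and 5 HLA-DRA UMIs. The parts of free RNA and of how reads matched the reference in the non-blood values were not tested.

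Endothelial cells were compared with the mean of cardiomyocytes and mesenchymal cells. HLA-DPA1 (8.55 and 8.32 against 2.57 and 3.37 CPM) was higher by 1.72 on the log2 scale (SE 0.39, adjusted p = 0.000945) and HLA-DMB (23 and 17 UMIs, 0.656 and 0.522 against 0.105 and 0.172 CPM) by 1.95 (SE 0.61, adjusted p = 0.0102). CD74 (2.05 and 1.6 against 8.78 and 5.55 CPM) fell by 1.88 (SE 0.57, adjusted p = 0.0086), all in the edgeR fit, and for these 3 genes the groups did not overlap. Thus 2 members were higher and 1 lower, where 27.0% of all genes were called higher and 30.9% lower. HLA-DRB1 (15.5 and 15.5 against 7.85 and 9.62 CPM; 0.88, adjusted p = 0.0696) was called in the blocked fit (0.86, adjusted p = 0.0322). None of the 3 calls held without organoid 32.7, although the differences kept their direction (HLA-DPA1 1.47, adjusted p = 0.0618, HLA-DMB 1.54, adjusted p = 0.199, CD74 -1.72, adjusted p = 0.132). Without organoid 33.10, HLA-DPA1 was called, and HLA-DMB (2.58, adjusted p = 0.0508) and CD74 (-2.04, adjusted p = 0.059) were not.

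Within the endothelial and mesenchymal classes, levels differed between clusters, which is a description only. The endothelial cluster led by SOST and OIT3 had HLA-DPB1 at 40.4 and 36.6 CPM and HLA-DQB1 at 44.9 and 46.9 CPM, against 11.1 and 10.1 and against 7.07 and 7.96 CPM in the cluster led by ESM1. Its HLA-DRB1 was at 22.5 and 19.9 against 13.4 and 14.4 CPM. Of the mesenchymal clusters, that led by DCN and LUM, genes of matrix proteoglycans, had CD74 at 23.1 and 22.8 CPM, the others between 4.81 and 13.7 CPM. In each case both organoids gave the same order.

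The monocyte-macrophage class was divided into macrophage-like cells (480 and 276), in whose subclusters the macrophage marker list was raised more over the other cells than the monocyte list, and monocytic-like cells (207 and 42), where the monocyte list was raised more. Macrophage-like cells still held monocyte markers, at a summed 4386 and 4814 CPM beside 3142 and 2329 CPM of macrophage markers, against 57133 and 58067 CPM and 582 and 482 CPM in monocytic-like cells. Of the 4 macrophage-like subclusters, 2 had no macrophage marker among their 10 leading genes. HLA-DRA was at 396 and 98 CPM in macrophage-like and 178 and 22.2 CPM in monocytic-like cells, the last value resting on 12 UMIs. CD74 was at 397 and 156 against 212 and 72 CPM and CIITA at 18.3 and 10.8 against 9.49 and 3.69 CPM. In each organoid the macrophage-like value was the higher, but macrophage-like cells of organoid 33.10 lay below monocytic-like cells of organoid 32.7 for HLA-DRA and CD74, so the groups overlapped. HLA-DPA1 was at 84.8 and 18.7 against 13.4 and 1.85 CPM, HLA-DPB1 at 45.5 and 15.3 against 6.72 and 7.39 CPM and HLA-DQB1 at 29.1 and 5.82 against 2.77 and 3.69 CPM, without overlap of these values. The monocytic-like values of organoid 33.10 rested on 1, 4 and 2 UMIs, respectively. In that organoid, the Poisson intervals of the groups overlapped for HLA-DPB1 (12 to 19.1 and 2.01 to 18.9 CPM) and HLA-DQB1 (3.9 to 8.37 and 0.447 to 13.3 CPM), but not for HLA-DPA1.

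**Figure D4:**
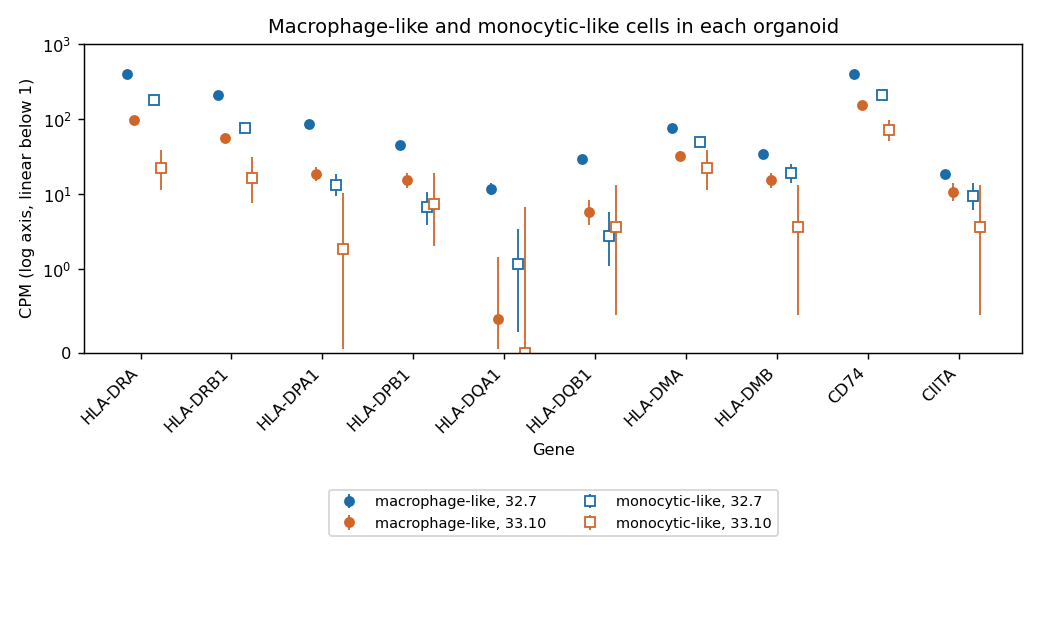
Level of the 10 members (horizontal axis) in macrophage-like (circles) and monocytic-like (squares) cells of organoid 32.7 (blue) and organoid 33.10 (orange), in CPM on a log axis that is linear below 1, with exact Poisson 95% intervals. Blue points lie above orange points of the same cell type for HLA-DRA, at 396 against 98 and 178 against 22.2 CPM.

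Of the members, HLA-DPA1 (2.00, SE 0.62, adjusted p = 0.0246), HLA-DPB1 (1.89, SE 0.52, adjusted p = 0.0116) and HLA-DQB1 (2.34, SE 0.79, adjusted p = 0.0366) were called higher in macrophage-like cells and none lower among 17120 genes tested (edgeR, quasi-likelihood, Benjamini-Hochberg). Of all genes, 11.0% were called higher and 11.2% lower, and the median log2 fold change was 0.85 for the members and 0.06 for all genes. HLA-DRA (0.76, adjusted p = 0.543), CD74 (0.54, adjusted p = 0.552) and CIITA (0.58, adjusted p = 0.568) were not called. The blocked fit called HLA-DRA (1.10, adjusted p = 0.0379). The 3 calls depended on the subclusters, with 1 member called at a coarser resolution (0.4) and none at a finer one (1.2). Without organoid 32.7 none was called, with differences of 3.29 for HLA-DPA1 (adjusted p = 0.144), 1.00 for HLA-DPB1 (adjusted p = 0.58) and 0.61 for HLA-DQB1 (adjusted p = 0.88). HLA-DPA1 was not called with 10% of the library profile removed (adjusted p = 0.0668), nor HLA-DQB1 without predicted doublets (adjusted p = 0.0559) or with at least 2 PTPRC UMIs (adjusted p = 0.0522).

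The share of cells with a transcript was compared after each cell was thinned to 2000 UMIs. A UMI of HLA-DRA or CD74 was found in 48.7% of monocyte-macrophage cells of organoid 32.7 (325 of 668, exact binomial 95% interval 44.8 to 52.5) and in 26.6% of those of organoid 33.10 (81 of 304, 21.8 to 32). Without thinning, the shares were 72.9% and 57.2%. Cardiomyocytes, taken here as a cell type not known for class II transcripts, gave 1.38% and 0.833% thinned and 5.48% and 3.87% not thinned, with median depths of 7329 and 9073 UMIs against 14453 and 13661.5 UMIs in monocyte-macrophage cells. Endothelial cells, at 0.639% and 0.301%, were no higher than the cardiomyocytes, which are not shown to be a floor. Mesenchymal cells, at 3.29% (interval 2.73 to 3.92) and 1.54% (1.19 to 1.98), had the higher share in both organoids, with intervals that overlapped those of cardiomyocytes in organoid 33.10. These intervals cover only the sampling of cells within 1 organoid. Cells are not replicates, and no difference in share was tested. Macrophage-like cells reached 56.9% and 28.9%, and monocytic-like cells 29.9% and 12.2%.

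**Figure D5:**
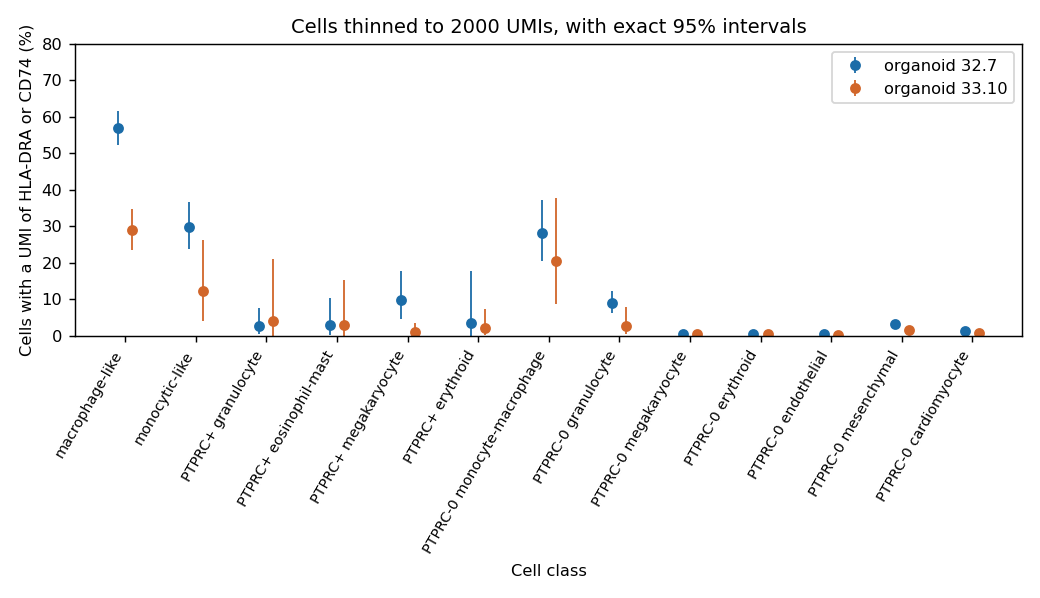
Share of cells with at least 1 UMI of HLA-DRA or CD74 (percent, vertical axis) in each cell class (horizontal axis) of organoid 32.7 (blue) and organoid 33.10 (orange), with cells thinned to 2000 UMIs and exact binomial 95% intervals. Macrophage-like cells are highest, at 56.9% and 28.9%, and cardiomyocytes, at 1.38% and 0.833%, are shown for comparison.

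HLA-DRA and CD74 were found together in single cells. Among thinned macrophage-like cells with an HLA-DRA UMI, 67% of 188 cells in organoid 32.7 and 73% of 37 cells in organoid 33.10 had a CD74 UMI, against 27.5% of 276 and 17.3% of 226 cells without HLA-DRA. No member was found in 147 of 464 thinned macrophage-like cells of organoid 32.7 and 163 of 263 of organoid 33.10. Cells of the monocyte-macrophage clusters with no PTPRC UMI (292 and 77 cells) had HLA-DRA at 138 and 103 CPM and CD74 at 122 and 103 CPM, so the PTPRC gate left part of the class out.

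Within PTPRC-positive monocyte-macrophage cells, every member had the lower value in organoid 33.10. In the cells of these clusters with no PTPRC UMI, HLA-DMA (23.6 and 38.6 CPM, from 21 and 9 UMIs), HLA-DPB1 (18 and 25.8 CPM, from 16 and 6 UMIs) and CIITA (3.38 and 4.29 CPM, from 3 and 1 UMIs) had the higher value in organoid 33.10. Their Poisson intervals overlapped between the organoids, so this order lies within counting error. In those cells, HLA-DRA (138 and 103 CPM) and CD74 (122 and 103 CPM) were lower in organoid 33.10, but their intervals overlapped as well. The intervals of HLA-DQB1 (38.3 and 4.29 CPM, from 34 and 1 UMIs) did not. In PTPRC-positive cells, the gap was widest for HLA-DQA1 (9.56 and 0.362 CPM), followed by HLA-DQB1 (23.8 and 5.62 CPM), HLA-DPA1 (70.3 and 17 CPM) and HLA-DRA (352 and 90.6 CPM), and narrowest for CIITA (16.5 and 10.1 CPM). With 1 library for each organoid, this difference has no test. The 8 macrophage markers summed to 2622 and 2148 CPM and the 8 monocyte markers to 15109.5 and 10037 CPM in the class, and predicted doublets made up 7.58% and 21% of the libraries. Their part in the gap was not tested. The gap was not shared by all genes of the pathway lists: IRF8 was at 51.7 and 53.6 CPM and SPI1 at 355 and 343 CPM. Nor was it shared by CD14, at 364 and 453 CPM, and CSF1R, at 214 and 212 CPM, which are markers used to name the class. The 8 monocyte-macrophage markers together, CD14 and CSF1R included, were lower in organoid 33.10, at a summed 7070 and 5785 CPM. HLA-B, a class I heavy chain gene, stood at 210 and 256 CPM and PSMB9, an immunoproteasome subunit, at 18.2 and 35.5 CPM, both higher in organoid 33.10. RFX5, a subunit of the RFX complex on class II promoters, was at 8.36 and 4.71 CPM.

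The genes around the class II pathway were followed by list. In monocyte-macrophage against non-blood cells, 28.3% of all genes were called higher and 36.3% lower. All 8 genes of endosomal processing were higher in monocyte-macrophage cells than in non-blood cells, including the protease gene CTSS (8.10), the thiol reductase gene IFI30 (8.92) and CTSH (5.12), down to LGMN (0.36). All 6 costimulation genes were higher, led by CD86 (9.87) and CD80 (4.66), the ligands of CD28. Of 12 class I genes, 10 were higher and 1 was lower. The promoter-bound factors that CIITA docks on were close to even between the classes: of 7 genes, RFXANK was higher (0.29, SE 0.11, adjusted p = 0.0348) and NFYB lower (-0.46, SE 0.14, adjusted p = 0.00879), and the median was 0.14. Of 8 measured genes of the interferon gamma route and of myeloid transcription, 6 were higher, among them IRF8 (8.24) and SPI1 (7.68), and JAK1 was lower (-0.49). IFNG, HLA-DQA2 and HLA-DQB2 were found in at most 5 cells and left out, and HLA-DOA and HLA-DOB did not pass the filter on low counts. These values are log2 fold changes of the edgeR fit, with p-values adjusted over all genes.

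In the PTPRC-positive gate as a whole, 7 of 8 endosomal, 3 of 6 costimulation, 5 of 8 interferon or myeloid, 2 of 12 class I and 0 of 7 promoter-factor genes were higher, beside 13.4% of all genes, and none of these lists had a gene called lower. In the comparison with other blood, 17.8% of all genes were called higher and 7.61% lower. All 8 endosomal and all 6 costimulation genes and 11 of 12 class I genes were higher there. Their medians were 3.31, 3.09 and 1.31, against 0.12 for all genes. There, 4 of 8 interferon or myeloid genes were higher, and of the promoter factors RFXAP was lower (-0.58). In other blood against non-blood cells, the counts higher and lower were 4 and 3 endosomal, 2 and 2 costimulation, 3 and 3 class I, 4 and 1 interferon or myeloid, and 3 and 0 promoter-factor genes, beside 26.4% and 42.1% of all genes. In endothelial against the other non-blood cells, they were 0 and 3, 2 and 1, 3 and 0, 4 and 1, and 2 and 1, in the same order, and several of these shares are near those of all genes (27.0% higher and 30.9% lower). Between macrophage-like and monocytic-like cells the lists split: 3 endosomal genes were higher (CTSL by 2.06, LGMN by 1.77 and CTSB by 0.95) and 2 lower (CTSD by -1.70 and CTSH by -1.09), 1 interferon or myeloid gene was higher (IRF8, 1.25) and 5 were lower, among them IRF1 (-1.78). NLRC5, the transactivator of class I genes, was lower in macrophage-like cells (-2.36, SE 0.55, adjusted p = 0.00344), whereas CIITA, its class II counterpart, had a difference of 0.58 (adjusted p = 0.568). Of 12 class I genes, 3 were lower, of 6 costimulation genes CD83 was higher (3.20), and of the promoter factors 2 were higher and 3 lower. Between these 2 groups of cells, 11.0% of all genes were called higher and 11.2% lower. These list calls are of the main fit only. At the finer resolution of 1.2, 305 genes were called higher and 91 lower, against 1877 and 1925 in the main fit.

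The genes outside the set whose level followed that of HLA-DRA most closely were named by correlation. Over 24 sums of 12 classes, Pearson's r of log2(CPM + 1) with HLA-DRA was 0.96 for CD163, a scavenger receptor, 0.959 for C1QB and 0.953 for C1QA, complement subunits, and 0.941 for FOLR2, a folate receptor. Next came LILRB3, SERPINA1, TMEM236, FCGR3A, C1QC and CD163L1, from 0.933 to 0.923. CD163, C1QA, C1QB and C1QC belong to the macrophage marker list that divided the monocyte-macrophage class. They were not kept out of the clustering that formed the classes. Among the members, r was 0.942 for HLA-DMB, 0.927 for HLA-DMA, 0.909 for CD74, 0.815 for CIITA, 0.801 for HLA-DRB1, 0.778 for HLA-DQA1 and 0.707 for HLA-DPA1, but 0.365 for HLA-DPB1 and 0.152 for HLA-DQB1. The points share 2 libraries and differ in depth, so these values order the genes and carry no test.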

How the data were processed

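Single-cell libraries of 2 BG-HFOs were made with 10x Genomics 3′ v3.1 chemistry. The authors deposited raw UMI counts per gene and barcode, made with Cell Ranger on GRCh38 with intronic reads included. These counts were used as deposited, with the filter of the study (50 to 11000 genes, under 30.0% mitochondrial UMIs, genes in over 5 cells, 29942 genes kept). Cells were clustered with scanpy 1.11.5 (13 components, 20 neighbours, Leiden resolution 0.8) into 27 clusters, and PTPRC-positive cells into 15 subclusters. A name needed at least 3 raised markers and no raised list of an unrelated lineage, a scoring rule written after the data were seen. Predicted doublets (Scrublet, 7.58% and 21%) were kept. UMIs were summed per organoid and class (12 classes of at least 20 cells, 24 sums) and tested with edgeR 4.0.16 in R 4.3.3 (TMM, filterByExpr, quasi-likelihood test) at an adjusted p of 0.05. DESeq2 1.42.0 was an alternative. The tests of monocyte-macrophage cells against non-blood and against other blood cells were checked on simulated counts. These counts were drawn with no effect of the organoid, so the check does not cover the pairing of sums.

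Classes compared come from the same 2 organoids, which pairs their sums: deviations of classes of 1 organoid correlated with a median r of 0.0741 over 66 pairs of classes (-0.0492 to 0.425). The members and all gene lists were chosen with earlier results of these data known. The genes named are the 10 members, PTPRC, genes of those lists, cell type markers and the 10 genes closest to HLA-DRA. Leading genes of clusters were named after their values were seen. Some genes of the lists are not reported here.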

Additional observations from a re-analysis of the deposited data

How the results depend on the processing

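Over the alternatives, 587 member values kept their direction and side of the threshold, 28 lost a call, 13 gained one and 22 changed sign. Some sign changes were of values near 0, such as HLA-DQB1 in monocyte-macrophage against non-blood cells (0.03 in the main fit). Others were of larger values. In other blood against non-blood cells, the main fit gave 4.26 for HLA-DRA, 1.87 for HLA-DMB, -1.38 for HLA-DPA1 and -3.17 for HLA-DQA1, none of them called. HLA-DQB1 in monocyte-macrophage against non-blood cells was -0.08 with DESeq2 size factors, -0.04 with the organoid as a replicate block, -0.05 with 10% of the library profile removed, -0.01 with at least 2 PTPRC UMIs, -0.15 with DESeq2 and -1.48 to 0.64 with 1 organoid left out, where HLA-DPB1 ran from -0.43 to 1.24. In other blood against non-blood cells, HLA-DRA was -1.28 and HLA-DMB -1.54 without predicted doublets (HLA-DMB -1.41 to 1.65 with 1 organoid left out), HLA-DPA1 was 0.90 with at least 2 PTPRC UMIs, CIITA was 0.79 at resolution 0.4 and 0.60 with DESeq2, HLA-DQA1 was 0.00 with DESeq2, and 4 members were higher with DESeq2. With at least 2 PTPRC UMIs, the other blood arm held only eosinophil-mast cells and megakaryocytes. At resolution 0.4, it held only granulocytes and megakaryocytes. In the endothelial comparison, leaving out 1 organoid gave 0 to 1 members higher and HLA-DRA -0.46 to 1.24, HLA-DQB1 -0.20 to 0.00, HLA-DQA1 -0.03 to 0.86 and CIITA -0.05 to 0.48. In macrophage-like against monocytic-like cells, 1 member was higher at resolution 0.4 and 0 at resolution 1.2, where HLA-DRA was -0.02, HLA-DMB -0.07, CD74 -0.13 and CIITA -0.79, and 0 to 3 with 1 organoid left out. It was 3 when the subclusters without a leading marker of their subtype were left out, an alternative chosen after seeing the data. In PTPRC-positive against PTPRC-0 cells, the log2 ratio of CPM in 1 organoid alone ran from -0.65 to 3.67 for HLA-DQA1 and from -1.17 to 0.17 for HLA-DQB1. The share of cells with HLA-DRA or CD74, 37.6% as the mean of organoids, was 65.1% not thinned. The replicate block changed no call of a member beyond those given. It moved the genes higher and lower in PTPRC-positive cells from 3283 and 3266 to 5819 and 6191, and removing doublets left 1325 lower. At resolution 1.2, 305 genes were higher and 91 lower in macrophage-like cells, against 1877 and 1925. Without 1 organoid, counts over all genes fell: genes lower in monocyte-macrophage than non-blood cells from 6554 to 3929 and 4319, genes lower than in other blood from 1373 to 519 and 547 (genes higher from 3206 to 1907 without organoid 32.7), genes higher in endothelial cells from 4875 to 2601 and 2839 and lower from 5582 to 3265 and 3522. In macrophage-like cells they fell to 476 higher and 256 lower without organoid 32.7 and to 1221 lower without organoid 33.10. The causes were not tested. Precision is limited by 2 organoids of 1 line and by 42 monocytic-like cells in organoid 33.10, where HLA-DPA1 had 1 UMI.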

Other observations

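PTPRC-positive cells that stayed unnamed had HLA-DRA at 100.1 and 21.8 CPM and CD74 at 105 and 31.4 CPM in organoids 32.7 and 33.10, with the 8 macrophage markers at 619 and 348 CPM against 2622 and 2148 CPM in the monocyte-macrophage class. Removing predicted doublets left 736 of 913 and 85 of 370 of these cells, and the part of doublets in their values was not tested. The subcluster led by S100B and MPO (78 and 42 cells) was grouped as macrophage-like, although its granulocyte markers were raised more than its macrophage markers. Its HLA-DRA was at 11.7 and 17.1 CPM and its CD74 at 40.2 and 31.8 CPM. In the macrophage-like subcluster led by SPP1 and CXCL8 (39 and 4 cells), HLA-DRA was at 239 and 0 CPM and CD74 at 281 and 82.3 CPM. Granulocytes with no PTPRC UMI (512 and 127 cells) had HLA-DRA at 15.5 and 0 CPM. Their cluster was led by CLC and MPO, with eosinophil-mast, monocyte-macrophage and monocyte markers raised beside those of granulocytes. This class therefore need not match the PTPRC-positive granulocytes.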
